A study of Homo sapiens with 6 samples.

Results

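The genes described here are MDM2, MDM4, TP53I3, TP53INP1, SESN1, ZMAT3, FDXR, BTG2 and GADD45A, 9 genes that either restrain the transcription factor p53 or are known as its direct targets. They were chosen by symbol from the 59050 entries of the expression table, and all 9 were found, each on 1 row. The data are bulk RNA-seq of human foreskin fibroblasts (HFF) at about passage 18, infected with a vector for ER:RAS and selected with 200 µg/ml neomycin. ER:RAS joins H-RAS (G12V) to a hormone-binding domain of the oestrogen receptor, so that 4-hydroxytamoxifen (4-OHT) switches on a protein that is already made. Both groups carry ER:RAS. In 1 group (3 libraries) the cells received 100 nM 4-OHT and were harvested a week later as cells in oncogene-induced senescence, and in the other (3 libraries) they are labelled DMSO, the vehicle. Cells without ER:RAS that received 4-OHT were not analysed here, so an effect of 4-OHT and an effect of active RAS cannot be told apart. The labels do not say whether the replicates are separate cultures, so the p-values rest on the spread between these libraries alone, which may be technical.

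p53 is held at a low level in unstressed cells by MDM2, a ubiquitin ligase that marks it for breakdown, and by MDM4, a related protein that binds p53 and masks its activating domain. MDM2 is itself a target of p53, which closes a feedback loop. In oncogene-induced senescence of fibroblasts, p53 and its target p21 (CDKN1A) form one of the main arms of the growth arrest, beside p16 and RB. Other targets act in cell death, DNA repair, antioxidant defence and control of mTORC1, and many of them also answer to factors other than p53.

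Levels are TPM (a level per transcript length, scaled to nearly the same total in every library). A log2 fold change is 4-OHT minus DMSO in log2(TPM + 1), which understates the change of low genes, and was tested with limma over the 15272 genes whose mean reached 1 TPM. Median-ratio scaling, given beside some values, rescales libraries by the median of gene-wise ratios. A gene is called higher or lower, or said to have risen or fallen, where its Benjamini-Hochberg adjusted p lay below 0.05. Of all tested genes 49.6% were called, 19.8% higher and 29.9% lower, so a call on its own is common here. All 10 listed fibroblast markers were above 1 TPM, with a summed level of 19101 to 19509 in 4-OHT and 20227 to 20826 in DMSO, most of it VIM. Each marker was called: 7 were lower, among them DCN (-1.04), FAP (-1.01), PDGFRA (-0.92) and COL3A1 (-0.91), and PDGFRB (0.71), THY1 (0.42) and VIM (0.15) were higher. The call of COL1A1 (-0.19) was lost under median-ratio scaling and that of VIM under quantile normalization. Of the 4 endothelial markers none reached a mean of 1 TPM. Of 6 epithelial markers KRT10 (32.0 to 51.0 over the 6 libraries, not called) and EPCAM did, and EPCAM was lower (0.6 ± 0.135 against 1.55 ± 0.132, log2 fold change -0.67). Of 6 immune markers CD68 (54.0 to 87.1, not called) and CD14 did, and CD14 was higher (5.24 ± 1.7 against 2.14 ± 0.822, log2 fold change 0.99). Of 4 melanocyte markers PMEL did and was lower (0.49 ± 0.118 against 1.66 ± 0.604, log2 fold change -0.82), while KRT1, TYR and DCT were listed at 0 throughout. The part of other cell types in the results was not tested. In bulk samples, fewer cells with a transcript and less of it per cell cannot be told apart.

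Of the 9 genes 5 rose (MDM2, TP53I3, TP53INP1, ZMAT3 and GADD45A) and 2 fell (SESN1 and BTG2), while MDM4 and FDXR were not called. That is 55.6% higher and 22.2% lower, beside 19.8% and 29.9% of all tested genes. The median log2 fold change of the 9 was 0.19, against -0.09 over all tested genes. In 8 of the 9 the libraries of the groups did not overlap, which held for 59.0% of all tested genes. The changes of the called members lay between 1.15-fold and 1.67-fold.

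Where the p53 sequence element sits near a transcription start, it can be shown. The promoter windows used here come from RefSeq (GRCh38.p14) and run from 250 bases before to 50 bases after a start. These windows covered 7 of the 9 genes, all but TP53INP1 and GADD45A. They were searched for the p53 consensus, a pair of abutting 10-base elements that reads alike on both strands, with up to 3 mismatches of 20 and the central C and G of each element kept. MDM2, SESN1 and FDXR had a match and BTG2, MDM4, TP53I3 and ZMAT3 had none, while 1.37% of all 27305 RefSeq genes with a window had one. A match is a description of letters and no evidence of binding. The 9 genes were picked for their link to p53, so a higher share than over all genes is no independent result. The sequences are shown because MDM2, SESN1 and FDXR carry the element and went different ways, 1 higher, 1 lower and 1 not called. The matched 20 bases are in capitals, 5′ to 3′ on the strand of the gene.
MDM2 (chr12:68808833-68808952, plus strand): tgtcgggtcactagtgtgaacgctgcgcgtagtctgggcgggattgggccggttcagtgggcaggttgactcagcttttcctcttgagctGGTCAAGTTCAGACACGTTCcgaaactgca
SESN1 (chr6:109009008-109009127, minus strand): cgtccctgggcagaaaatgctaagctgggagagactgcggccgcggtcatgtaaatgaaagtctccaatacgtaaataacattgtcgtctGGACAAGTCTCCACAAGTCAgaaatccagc
FDXR (chr17:74872995-74873024, minus strand): ggcgggcccGGGCAGGAGCGGGCTTGCCCt
The MDM2 match had 2 mismatches and ended 74 bases before the more upstream of a pair of internal starts. It lies inside the gene but in no GENCODE 29 exon of it, and so in an intron of its longer transcripts. The SESN1 match had 3 mismatches, ended 29 bases before an internal start and is likewise intronic in the longer transcripts. The FDXR match, also with 3 mismatches, ended 1 base before a start that lies close to the upstream end of the gene, and GENCODE exons overlap it.

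MDM2 (chromosome 12, 68808176 to 68850686, GRCh38), the ubiquitin ligase of p53, was read at 59.2, 62.3 and 66.7 TPM in the 3 4-OHT libraries and 46.6, 48.9 and 50.7 in DMSO. Each 4-OHT library was above each DMSO library. The mean was 1.29-fold higher (log2 fold change 0.36, SE 0.063, adjusted p = 0.00288), and 17.0% of all tested genes had a larger log2 fold change. By level MDM2 ranked 4th of the 9 in both groups. The exons annotated for MDM2 share 439 bases, 3.3% of their total, with the pseudogene AC025423.2 on the same strand. AC025423.2 was read at 60.4, 0.856 and 68.9 in DMSO and 1.24, 0.873 and 1.55 in 4-OHT. Its groups overlapped, and it was not called (log2 fold change -3.18, adjusted p = 0.0805). On the opposite strand the MDM2 exons share 5.9% of their bases with AC025423.4 and 1.0% with CPM. AC025423.4 stayed under a mean of 1 TPM. CPM was at 2.69 ± 1.29 in 4-OHT against 5.17 ± 1.85 in DMSO and was not called. How reads were divided between the overlapping rows is not given in the sources used here. The MDM2 value of DMSO replicate 2, in which the pseudogene was low, lay between those of replicates 1 and 3, in which it was high. Whether shared reads changed the MDM2 values was not tested.

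MDM4 (chromosome 1, 204516379 to 204558120), the relative of MDM2 that masks p53, was the lowest of the 9 in both groups. It was read at 4.87, 5.24 and 1.98 in 4-OHT and 5.78, 7.33 and 6.97 in DMSO. All 4-OHT libraries were below all DMSO libraries, but 4-OHT replicate 3 lay far below the other two. The log2 fold change of -0.68 (SE 0.283, 95% interval -1.35 to -0.01) did not pass the test (adjusted p = 0.0851). Without 4-OHT replicate 3 it was -0.34 (adjusted p = 0.0927, against 0.053 to 0.269 over all alternatives).

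Within each library MDM2 was read above MDM4, at a ratio of 12.2, 11.9 and 33.7 in 4-OHT and 8.06, 6.67 and 7.27 in DMSO. The ratio was higher in every 4-OHT library, by 1.21 log2 units on average, and does not depend on scaling between libraries. The exact permutation test, 2-sided, gave p = 0.1, the smallest that 3 against 3 libraries allow. Without 4-OHT replicate 3 the difference was 0.72 log2 units.

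**Figure D1:**
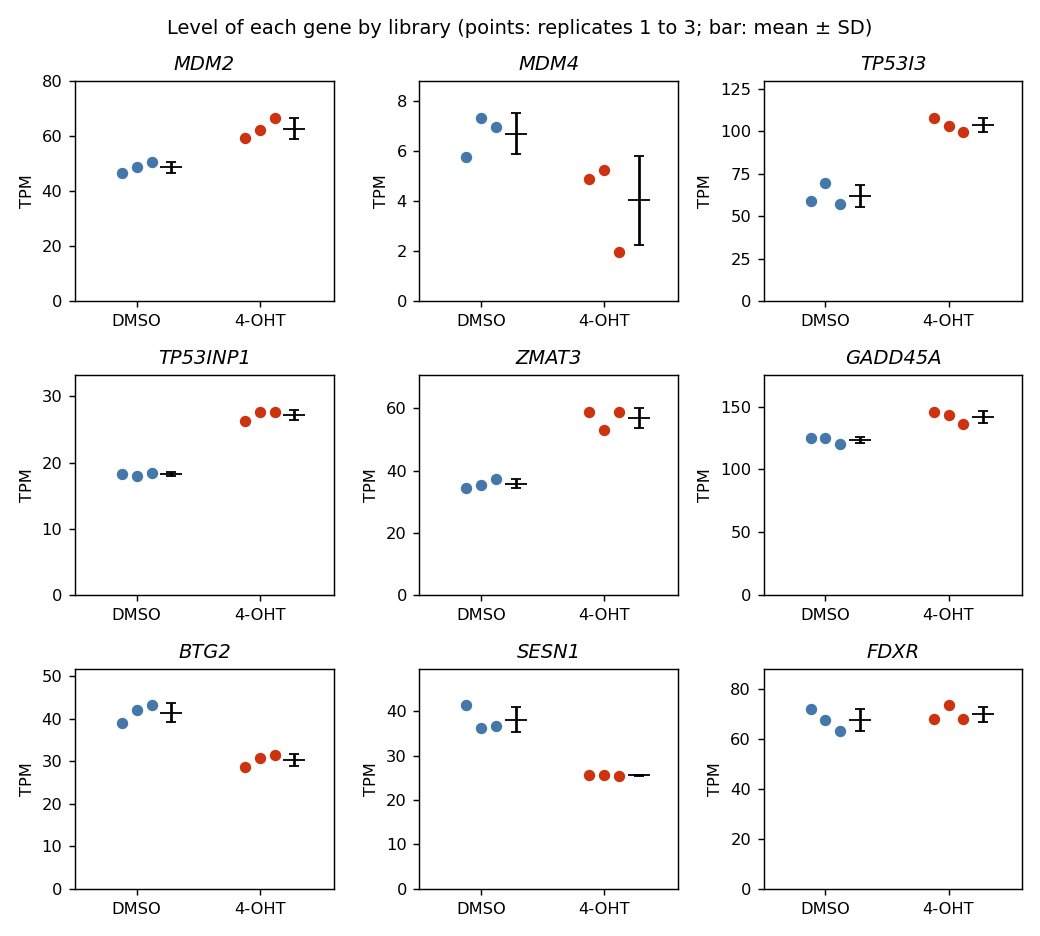
TPM of each of the 9 genes in each library, on linear axes that start at 0. Points are the 3 replicates of DMSO (blue) and 4-OHT (red), and the bar beside them is their mean ± SD; the groups overlap only for FDXR, and MDM4 shows 1 low 4-OHT library at 1.98.

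Among the targets, TP53I3 (chromosome 2, 24077433 to 24085861), a quinone oxidoreductase linked to oxidative stress, rose most. It was read at 108, 103 and 99.9 in 4-OHT and 59.1, 69.6 and 57.5 in DMSO. The groups did not overlap, and the log2 fold change was 0.74 (SE 0.0797, adjusted p = 0.000267). A larger change was found in 7.03% of tested genes.

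ZMAT3 (chromosome 3, 179017223 to 179072279), a zinc finger protein that binds RNA, was read at 59.0, 53.2 and 58.8 in 4-OHT and 34.5, 35.4 and 37.3 in DMSO. All 4-OHT libraries were above all DMSO libraries (log2 fold change 0.66, SE 0.0638, adjusted p = 0.000153). ZMAT3 was below BTG2 and SESN1 in DMSO (35.7 ± 1.46 against 41.3 ± 2.2 and 38.0 ± 2.79, mean ± SD, n = 3) and above both in 4-OHT (57.0 ± 3.29 against 30.3 ± 1.4 and 25.6 ± 0.121). The DMSO libraries of ZMAT3 and SESN1 overlapped.

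TP53INP1 (chromosome 8, 94925972 to 94949411), a stress protein of the nucleus and of autophagosomes, was read at 26.3, 27.6 and 27.7 in 4-OHT and 18.3, 18 and 18.5 in DMSO. Replicates were close in both groups, and the mean was 1.49-fold higher (log2 fold change 0.55, SE 0.0604, adjusted p = 0.000289). Its relative TP53INP2 was at 18.5 ± 0.892 against 19.2 ± 1.83 (log2 fold change -0.04, adjusted p = 0.718), with overlapping groups. The value of TP53INP2 changed sign under median-ratio scaling (0.07) and quantile normalization (0.05) and without DMSO replicate 2 (0.02).

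GADD45A (chromosome 1, 67685061 to 67688338), a small protein induced by DNA damage and growth arrest, had the highest level of the 9 in both groups and the smallest change of those called. It was read at 146, 143 and 136 in 4-OHT and 125, 125 and 120.3 in DMSO, with no overlap (log2 fold change 0.19, SE 0.045, adjusted p = 0.00972). A larger log2 fold change was found in 26.4% of tested genes. Under median-ratio scaling its log2 fold change was 0.31 (adjusted p = 0.00125, against 0.00125 to 0.0396 over all alternatives). Of its relatives, GADD45B was lower (22.7 ± 3.26 against 29.4 ± 1.93, log2 fold change -0.37, adjusted p = 0.0301) and GADD45G stayed under a mean of 1 TPM. The call of GADD45B was lost under both scalings (adjusted p = 0.107 and 0.0552), with no filter on low values (0.107), with the replicate block (0.0637) and without 4-OHT replicate 2 (0.0534), DMSO replicate 1 (0.0741) or DMSO replicate 2 (0.0913).

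SESN1 (chromosome 6, 108986437 to 109094819), a sestrin that restrains mTORC1, went the other way. It was read at 25.7, 25.6 and 25.5 in 4-OHT and 41.3, 36.3 and 36.6 in DMSO. Every 4-OHT library was below every DMSO library, 1.49-fold on average (log2 fold change -0.55, SE 0.0679, adjusted p = 0.000515). SESN2, another sestrin, was at 25.3 ± 1.06 against 22.6 ± 0.959 (0.15, adjusted p = 0.0939). SESN2 passed the test under median-ratio scaling (0.27, adjusted p = 0.0122) and quantile normalization (0.22, adjusted p = 0.0298). SESN3 was under a mean of 1 TPM over the 6 libraries and was not tested. It was at 1.22 ± 0.235 in 4-OHT against 0.717 ± 0.102 in DMSO, with no overlap. Whether the changes of SESN1 and SESN2 differ was not tested.

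BTG2 (chromosome 1, 203305491 to 203309602), an antiproliferative protein that recruits the deadenylase complex CCR4-NOT to messenger RNA, was read at 28.7, 30.8 and 31.4 in 4-OHT and 38.9, 42.1 and 43.1 in DMSO. The groups did not overlap, and BTG2 was 1.36-fold lower (log2 fold change -0.44, SE 0.066, adjusted p = 0.0014). Of the other members of its family that were tested, 3 of 4 were lower, beside 29.9% of all tested genes. BTG1 stood at 36.7 ± 3.63 against 48.8 ± 1.34 (-0.40, adjusted p = 0.00455) and TOB2 at 26.8 ± 1.83 against 48.3 ± 0.816 (-0.83, adjusted p = 5.29e-05). BTG3 was read at 48.3, 49.3 and 26.8 against 85.5, 84.5 and 84.0 (-1.06, adjusted p = 0.00551), with 4-OHT replicate 3 low, as for MDM4. TOB1 was at 47.4 ± 0.958 against 49.9 ± 5.4 (-0.07, adjusted p = 0.544), and its value turned to 0.05 under median-ratio scaling.

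FDXR (chromosome 17, 74862497 to 74873031), the mitochondrial reductase that passes electrons to ferredoxins, was read at 68.0, 73.3 and 67.9 in 4-OHT and 71.9, 67.4 and 63.2 in DMSO. The groups overlapped, and the log2 fold change was 0.05 (95% interval -0.10 to 0.20, adjusted p = 0.557). Its partners were not called either. FDX1 stood at 17.6 ± 0.243 against 17.1 ± 0.481 (0.04, adjusted p = 0.642) and FDX2 at 55.8 ± 3.42 against 48.1 ± 6.04 (0.22, adjusted p = 0.0992). FDX2 passed the test under median-ratio scaling (0.34, adjusted p = 0.0228) and on leaving out DMSO replicate 2 (0.32, adjusted p = 0.0152).

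Among the exons of the other called members, those of TP53I3 shared 3.5% of their bases with FAM228B and those of SESN1 7.1% with AL390208.1, both on the opposite strand. FAM228B was at 6.13 ± 0.902 in 4-OHT against 10.1 ± 1.28 in DMSO, and AL390208.1 stayed under a mean of 1 TPM. The strand setting of the counting is not given in the sources used here.

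**Figure D2:**
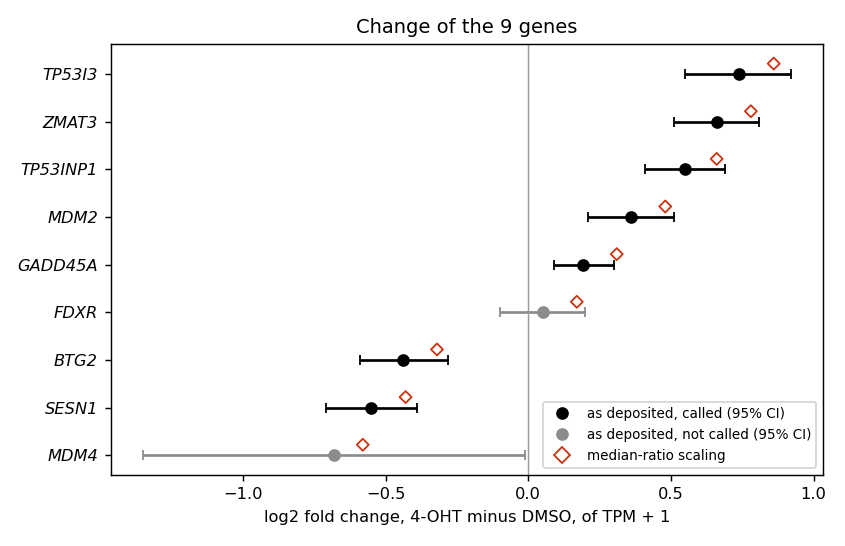
Log2 fold change of TPM + 1 (4-OHT minus DMSO) for each of the 9 genes, with 95% intervals for the values as deposited (black where called, grey where not) and open diamonds for median-ratio scaling. The 5 genes that rose, from GADD45A (0.19) to TP53I3 (0.74), and the 2 that fell, BTG2 (-0.44) and SESN1 (-0.55), stayed on their side of 0 with median-ratio scaling.

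The 9 genes were then set beside 62 other genes generally regarded as direct p53 targets, of which 59 were tested. Of these 23 rose and 14 fell (39.0% and 23.7%, against 19.8% and 29.9% of all tested genes), with a median of 0.15. Under median-ratio scaling 30 rose and 11 fell, where 26.4% of all genes were called higher and 23.5% lower. Like the 9 genes, the wider list went both ways.

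Of 5 tested targets that act in growth arrest 4 rose and none fell, beside 19.8% and 29.9% of all tested genes. CDKN1A, which encodes the cyclin-dependent kinase inhibitor p21, was read at 1723, 1639 and 1614 TPM in 4-OHT and 693, 681 and 662 in DMSO (log2 fold change 1.29, SE 0.0372, adjusted p = 5.6e-07). Its change was larger than that of any of the 9 genes. The stress kinase PLK3 rose from 35.3 ± 3.59 to 89.9 ± 1.9 (1.33) and the stress cytokine GDF15 from 67.7 ± 6.91 to 163 ± 30.5 (1.24). CCNG1, a cyclin that also feeds back on p53 and was singled out after its values were seen, was not called. It was read at 211, 116 and 217 in 4-OHT and 121, 110 and 238 in DMSO, so that both groups held high and low libraries.

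Of 17 tested targets that act in cell death 8 rose and 3 fell (47.1% and 17.6%, beside 19.8% and 29.9% of all tested genes). Under median-ratio scaling 9 rose and 2 fell, where 26.4% of all genes were called higher and 23.5% lower. TNFRSF10D, a decoy receptor of the death ligand TRAIL, rose most of the whole list, at 153, 158 and 156 against 45.1, 44.2 and 41.5 (1.81, adjusted p = 4.2e-07). PMAIP1, which encodes the BH3-only protein NOXA, rose from 85.3 ± 4.94 to 205 ± 16.2 (1.25). BBC3, which encodes PUMA, another BH3-only protein, fell, at 16, 17 and 8.90 against 21.2, 24.3 and 25.1 (-0.76, adjusted p = 0.0261). The call of BBC3 was lost with no filter on low values (adjusted p = 0.121) and without DMSO replicate 2 (0.0688) or 3 (0.0777), and its log2 fold change was -0.48 (adjusted p = 0.00929) without 4-OHT replicate 3. The membrane protein PERP was lower in every library (65.6 ± 1.17 against 99.7 ± 1.92, log2 fold change -0.60).

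Of 5 targets in DNA repair and nucleotide supply 1 rose and 1 fell (20% each, beside 19.8% and 29.9% of all tested genes). Under median-ratio scaling 2 rose and 1 fell, where 26.4% of all genes were called higher and 23.5% lower. The one that rose as deposited was RRM2B, the damage-induced subunit of ribonucleotide reductase (104 ± 5.53 against 40.2 ± 3.4, log2 fold change 1.36). The one that fell was DDB2, a sensor of ultraviolet damage named after its values were seen (-0.33, adjusted p = 0.00824). Of 5 targets that feed back on p53 or its turnover 2 rose and none fell, beside 19.8% and 29.9% of all tested genes. Under median-ratio scaling 4 rose, where 26.4% of all genes were called higher. The ubiquitin ligase TRIM32 was at 28.1 ± 1.5 against 19.9 ± 2.16 (0.48, adjusted p = 0.00395).

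Of 12 tested targets in metabolism and autophagy 3 rose and 6 fell (25.0% and 50%, beside 19.8% and 29.9% of all tested genes). The counts were 4 and 5 under median-ratio scaling, where 26.4% of all genes were called higher and 23.5% lower. Under quantile normalization they were 5 and 6, where 3625 of the 15272 tested genes were called higher and 3637 lower. DRAM1, a lysosomal membrane protein that promotes autophagy, fell from 183 ± 5.39 to 78.8 ± 0.592 (-1.21, adjusted p = 1.13e-06). ALDH4A1, a mitochondrial enzyme of proline breakdown, was at 7.49 ± 1.4 against 13.2 ± 2.41 (-0.74, adjusted p = 0.00848). Named after their values were seen, the 3 that rose were STEAP3 (0.92), SCO2 (0.75, adjusted p = 0.0407, with overlapping groups) and TIGAR (0.54), an iron reductase, a factor for assembly of cytochrome oxidase and an enzyme that lowers glycolytic flux.

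Of the 15 secreted, surface and other targets 5 rose and 4 fell (33.3% and 26.7%, beside 19.8% and 29.9% of all tested genes). Under median-ratio scaling 7 rose and 3 fell, where 26.4% of all genes were called higher and 23.5% lower. The tetraspanin CD82 rose from 127 ± 1.88 to 248 ± 6.2 (0.96, adjusted p = 2.21e-06). The small GTPase RAP2B (10.9 ± 1.14 against 20.9 ± 0.531, log2 fold change -0.89) and TRIM22 (67.7 ± 2.19 against 99 ± 0.279, log2 fold change -0.54) fell. BLOC1S2, a subunit of complexes that position lysosome-related organelles, was at 73.7, 73.4 and 72.4 against 58.0, 24.2 and 25.3 (1.13, adjusted p = 0.0186). Its call was lost with no filter on low values (adjusted p = 0.102) and without DMSO replicate 2 (0.0555) or 3 (0.0625), and the log2 fold change was 1.53 when DMSO replicate 1 was left out. The same library stood apart for KITLG, named after its values were seen, at 10.3 in DMSO replicate 1 against 50.3 and 48.4 in replicates 2 and 3.

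**Figure D3:**
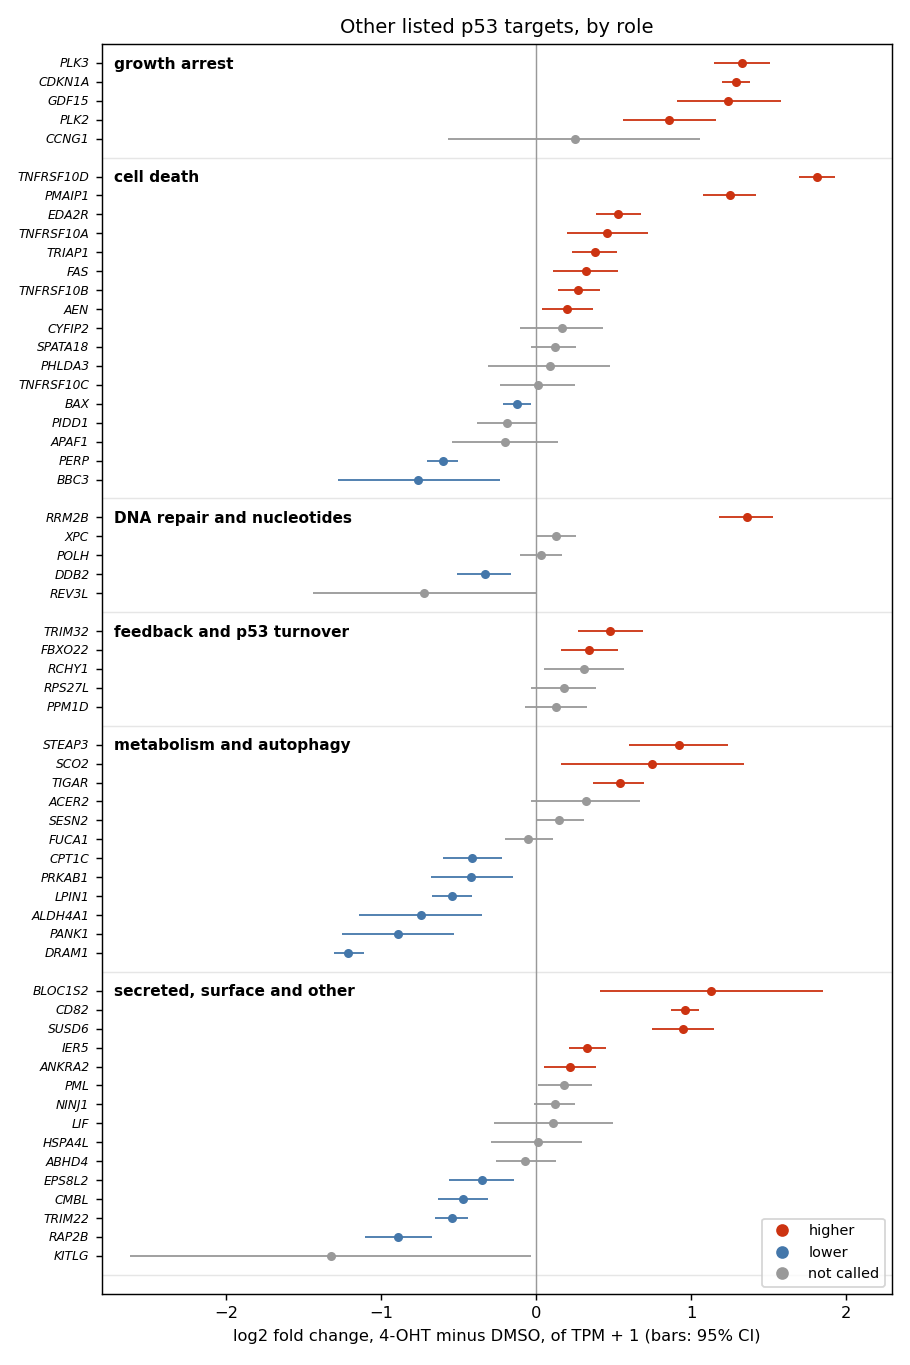
Log2 fold change of TPM + 1 (4-OHT minus DMSO) with 95% intervals for the 59 tested p53 targets other than the 9 genes, grouped by role and coloured by call (red higher, blue lower, grey not called). Growth arrest holds 4 genes that rose and none that fell, and metabolism and autophagy 3 that rose and 6 that fell, where 19.8% of all tested genes were called higher and 29.9% lower.

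By Pearson correlation of log2(TPM + 1) over the 6 libraries, the listed targets most like MDM2 were EDA2R (0.975), TRIM32 (0.961) and RRM2B (0.958). This describes 6 points that lie in the groups compared, so it repeats the difference between groups. EDA2R, a receptor of the TNF family, was read at 47.9, 53 and 53.1 against 35.1, 34.4 and 36.1, and RRM2B at 98, 106 and 108 against 38.3, 44.1 and 38.1. Each 4-OHT library of both was above each DMSO library.

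The promoter search found the p53 consensus near a start of 12 of the 50 listed targets that had a window (24.0%, beside 1.37% of all genes with a window). Of the 10 of these that were tested 5 rose, 2 fell and 3 were not called, where 19.8% of all tested genes rose and 29.9% fell. PMAIP1 and GDF15 were among those that rose and DDB2, with 1 mismatch the closest to the consensus, among those that fell. In this list, as in MDM2, SESN1 and FDXR, genes with the element were found in each class of call. The listed genes are those regarded as direct p53 targets, so their higher share with the element is no independent result.

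The transcripts of proteins that act on p53 went both ways. Of 31 regulators 8 rose and 13 fell as deposited (25.8% and 41.9%, beside 19.8% and 29.9% of all tested genes). Under median-ratio scaling 12 rose and 10 fell, where 26.4% of all genes were called higher and 23.5% lower. CDKN2A, whose ARF product binds MDM2 and frees p53, was read at 41.2, 46.4 and 37.0 against 22.8, 19.3 and 19.1 (0.99, adjusted p = 0.000247), and its row does not part ARF from p16. The kinases HIPK2 (8.22 ± 0.526 against 4.37 ± 0.269, log2 fold change 0.78) and ATM (26.0 ± 3.7 against 16.7 ± 3.13, log2 fold change 0.61), which phosphorylate p53, rose as well. The call of ATM was lost with no filter on low values (adjusted p = 0.0614, against 0.0117 as deposited). The mitotic kinase AURKA (54.1 ± 3.66 against 93.1 ± 1.5, log2 fold change -0.77), the checkpoint kinase CHEK2 (13.4 ± 1.94 against 21.6 ± 3.6, log2 fold change -0.64) and TP53BP2, which binds p53 and steers it towards death genes (15.1 ± 0.64 against 22.1 ± 0.373, log2 fold change -0.52), fell most. The call of CHEK2 was also lost with no filter (adjusted p = 0.0506). The p53 relatives TP63 and TP73 were listed at 0 in all 3 4-OHT libraries and in 2 of the 3 DMSO libraries.

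Genes that p53 is known to lower indirectly, through p21 and the repressor complex DREAM, fell in 13 of 13 cases. Of all tested genes 29.9% fell, and the median over all of them was -0.09. The median of these 13 was -2.39. The largest changes were those of BIRC5, an inhibitor of apoptosis needed in mitosis (15.7 ± 0.286 against 116 ± 3, log2 fold change -2.81), the cyclin CCNA2 (9.26 ± 1.48 against 64.1 ± 3.54, log2 fold change -2.68) and the transcription factor MYBL2 (4.49 ± 0.173 against 32.4 ± 1.98, log2 fold change -2.60). Their transcripts are also known to follow the rate of cell division, and the part of p53 in their change was not tested.

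**Figure D4:**
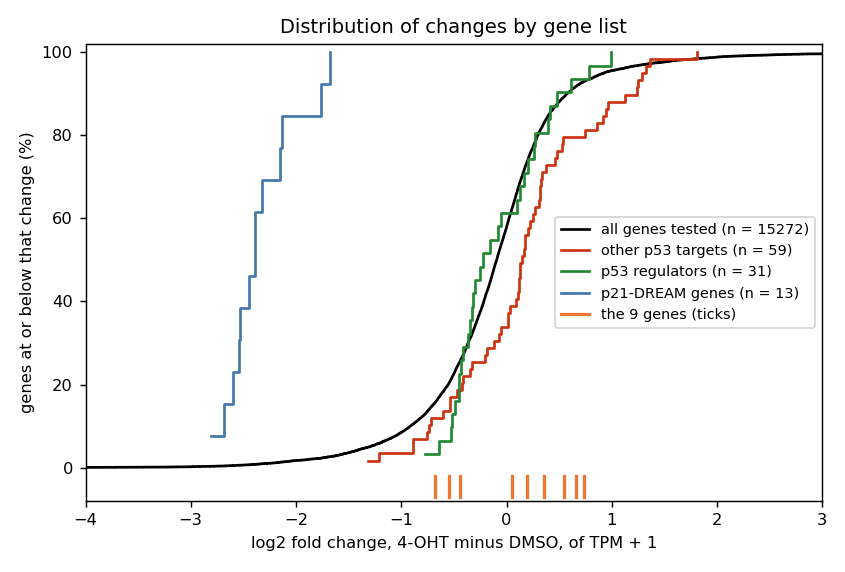
Cumulative share of genes (percent) at or below each log2 fold change (4-OHT minus DMSO, TPM + 1) for all 15272 tested genes (black), the 59 other p53 targets (red), 31 regulators of p53 (green) and 13 genes lowered through p21 and DREAM (blue), with orange ticks for the 9 genes. The medians are -0.09, 0.15, -0.22 and -2.39, and the ticks lie between -0.68 (MDM4) and 0.74 (TP53I3).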

How the data were processed

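The deposited values are TPM, made by the authors, for 59050 symbols in 6 libraries. The genome build was GRCh38 and the tools included StringTie, STAR and Trim Galore 0.6.6, per the submitters' processing notes. The sources used here give neither the gene annotation nor the strand setting. In the deposited column of DMSO replicate 3, 1 value below 0 was set to 0. TPM do not keep read depth, so the depth is unknown and no detection limit is given. Each library summed to 998367 to 998843 TPM.

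Genes whose mean reached 1 TPM were compared with limma 3.58.1 (R 4.3.3) on log2(TPM + 1), with a variance trend, 2-sided and without covariates, and p-values were adjusted by Benjamini-Hochberg over all tested genes. The code was tested on simulated data. Positions come from GENCODE 29 and promoters from RefSeq. Tables and plots used Python 3.11.15.

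The genes and lists were chosen with earlier results of these data known. Named were the 9 genes and TP63 and TP73. Of the wider targets CDKN1A and the 8 largest increases and 6 largest decreases among called genes of at least 5 TPM were named, and of the regulators 3 and 3. Also named were the 3 largest changes of the DREAM list, tested relatives and partners, and the 3 targets most like MDM2. Some listed genes are not reported here. Alternatives were median-ratio scaling, quantile normalization, a pseudocount of 0.1, no filter, a filter of 5 TPM, no variance trend, a replicate block and leaving out each library.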

Additional observations from a re-analysis of the deposited data

How the results depend on the processing

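The 5 increases and 2 decreases among the 9 genes were called under all 13 alternatives, and MDM4 and FDXR under none of them. Over those alternatives the log2 fold change of MDM2 lay between 0.31 and 0.48, that of TP53I3 between 0.68 and 0.86, that of ZMAT3 between 0.63 and 0.78, that of TP53INP1 between 0.54 and 0.66, that of SESN1 between -0.58 and -0.43 and that of BTG2 between -0.48 and -0.32. Median-ratio scaling shifted log2 fold changes upward by a median of 0.113 and quantile normalization by 0.13, so the balance of higher against lower calls over all genes depended on the scaling (3018 and 4561 as deposited, 4036 and 3591, and 3625 and 3637). Relatives and partners of the 9 genes called higher numbered 0 as deposited (limma), 2 under median-ratio scaling, 1 under quantile normalization and 0 to 1 on leaving out a library. No relative or partner had an unadjusted p below 0.05 with a positive change as deposited. The sign of TOB1 turned under median-ratio scaling (0.05), and that of TP53INP2 under the same scaling (0.07), quantile normalization (0.05) and without DMSO replicate 2 (0.02, the highest on leaving out a library, where the lowest was -0.11); the cause was not tested. Replicates share a number only: deviations of same-numbered libraries correlated at 0.0475, 0.00549 and 0.00664, and not every library correlated best with its own number. With the replicate block the same 5 and 2 of the 9 genes were called, as were 2819 genes higher and 4246 lower in all. Without counts the depth is unknown, so the limit that it sets on these values cannot be stated.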
